A study of Homo sapiens with 6 samples.

Results

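Long intergenic non-coding RNAs with a numbered LINC symbol were examined in HCT116 cells, an established human colorectal carcinoma line, and in DNMT3B KO cells, a derivative of that line in which the gene for the de novo DNA methyltransferase DNMT3B was disrupted. The members were chosen by their measured level: a gene was included when its symbol was LINC followed by digits and its mean level reached 0.5 CPM (counts per 1000000 counts of the library) in at least one of the lines. Of 60666 listed genes, 2135 carried such a symbol and 155 reached the threshold. A further 679 had counts but stayed under it in both lines, and 1301 had no count in any library.

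There were 3 libraries per line. HCT116 was labelled wild type and untreated, and both lines came as gifts from the laboratory that made the knockout and were grown in the same medium. The knockout was represented by 1 derived line, so the disrupted gene and any other difference between that line and its parent cannot be told apart. Nothing in the labels tells separate cultures from repeated libraries of one culture, and p-values therefore measure the spread between these libraries, which may be technical.

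LINC is the symbol given by the gene nomenclature committee to long RNAs that are transcribed between protein-coding genes, lack a long open reading frame and have no other established name. Many are spliced and polyadenylated like messenger RNAs, are made at lower levels than most coding genes, and vary more between cell types. DNMT3B adds methyl groups to cytosines followed by guanine (CG dinucleotides), and dense CG methylation over a promoter usually accompanies a silent gene. The comparison asks which of these RNAs differed between cells with and without DNMT3B.

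The promoters of 6 members are shown first because, among called members that reached 1 CPM without overlap of the lines and had a RefSeq start within 1 kb of their GENCODE start, these had the 3 largest differences in each direction. Each sequence holds 250 bases before to 50 bases after the start, 5′ to 3′ on the gene's strand, from the RefSeq promoter table for GRCh38.p14, with every CG dinucleotide in capitals. The windows of members that were higher in DNMT3B KO were LINC00189 at chr21:29193244-29193543 (plus strand), LINC02487 at chr6:167696240-167696539 (minus strand) and LINC01547 at chr21:44939864-44940163 (minus strand).
LINC00189: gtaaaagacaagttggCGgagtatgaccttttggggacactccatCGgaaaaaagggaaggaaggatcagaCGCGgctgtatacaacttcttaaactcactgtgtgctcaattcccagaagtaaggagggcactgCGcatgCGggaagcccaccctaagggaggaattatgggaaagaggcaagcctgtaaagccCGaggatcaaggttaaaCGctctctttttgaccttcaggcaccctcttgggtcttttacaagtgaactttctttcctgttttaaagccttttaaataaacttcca
LINC02487: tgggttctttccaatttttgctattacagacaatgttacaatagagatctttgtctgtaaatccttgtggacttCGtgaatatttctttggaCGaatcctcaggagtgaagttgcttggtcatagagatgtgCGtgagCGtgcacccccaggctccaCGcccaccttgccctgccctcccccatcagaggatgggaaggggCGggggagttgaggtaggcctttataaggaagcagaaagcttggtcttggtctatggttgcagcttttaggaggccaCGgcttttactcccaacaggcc
LINC01547: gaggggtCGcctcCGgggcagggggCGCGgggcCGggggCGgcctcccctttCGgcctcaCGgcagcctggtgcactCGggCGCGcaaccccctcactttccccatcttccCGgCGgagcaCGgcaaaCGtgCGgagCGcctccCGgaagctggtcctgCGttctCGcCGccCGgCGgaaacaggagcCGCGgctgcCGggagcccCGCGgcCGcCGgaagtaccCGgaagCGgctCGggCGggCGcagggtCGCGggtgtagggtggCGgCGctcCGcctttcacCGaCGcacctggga
Those of members that were lower were LINC00960 at chr3:75672031-75672330 (plus strand), LINC00173 at chr12:116533172-116533471 (plus strand) and LINC00482 at chr17:81309199-81309498 (minus strand).
LINC00960: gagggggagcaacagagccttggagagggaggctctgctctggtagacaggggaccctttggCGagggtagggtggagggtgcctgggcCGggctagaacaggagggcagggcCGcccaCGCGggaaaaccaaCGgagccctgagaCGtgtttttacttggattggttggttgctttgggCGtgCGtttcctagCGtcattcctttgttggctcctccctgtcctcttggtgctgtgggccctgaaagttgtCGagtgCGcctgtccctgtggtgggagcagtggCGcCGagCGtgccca
LINC00173: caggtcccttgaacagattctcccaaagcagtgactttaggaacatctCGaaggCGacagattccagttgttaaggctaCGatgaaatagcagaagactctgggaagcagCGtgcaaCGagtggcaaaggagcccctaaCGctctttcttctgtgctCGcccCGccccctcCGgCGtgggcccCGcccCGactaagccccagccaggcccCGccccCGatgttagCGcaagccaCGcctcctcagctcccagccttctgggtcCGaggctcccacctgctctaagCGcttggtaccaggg
LINC00482: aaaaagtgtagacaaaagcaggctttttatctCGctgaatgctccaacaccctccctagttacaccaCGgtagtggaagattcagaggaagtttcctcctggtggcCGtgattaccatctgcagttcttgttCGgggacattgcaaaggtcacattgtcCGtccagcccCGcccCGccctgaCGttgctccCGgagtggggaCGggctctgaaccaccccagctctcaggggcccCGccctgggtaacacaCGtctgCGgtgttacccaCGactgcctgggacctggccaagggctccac
The count of CG dinucleotides differed widely within each direction. It was 8 in LINC00189, 7 in LINC02487 and 42 in LINC01547, against 15 in LINC00960, 18 in LINC00173 and 14 in LINC00482.

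Levels below are normalized CPM, with library sizes scaled by TMM, given as mean ± SD over 3 libraries per line. Fold changes are DNMT3B KO over HCT116 from the fit of all genes in edgeR, with calls made at an adjusted p under 0.05. SE is the absolute log2 fold change over the square root of the test's F statistic, not a standard error from the fit. Estimated counts per library summed to between 55436267 and 68274783. DNMT3B itself fell from 36 ± 5.14 to 2.75 ± 0.180 CPM (log2 fold change -3.71, SE 0.15, edgeR adjusted p = 2.51e-06), with no overlap between the lines. Epithelial keratins were present in both lines (KRT8 at 2178 ± 407 and 1004 ± 40.4 CPM), and of 10 tested epithelial and colorectal markers 6 were lower and 1 was higher, their summed level being 4605 to 5414 in HCT116 and 2228 to 2434 CPM in DNMT3B KO. CDX1 and LGALS4 were near 0 in both. Of 5 tested markers of immune and blood cells, 4 were higher in DNMT3B KO, and the sum over all 9 went from 6.33 to 15.2 CPM in HCT116 to 21.2 to 26.2 CPM. MS4A1 had no count and CD3E stood at 0.0143 CPM in both lines, while CD4 went from 0.0336 ± 0.0137 to 2.79 ± 0.655 CPM. PDGFRB was higher among 2 tested fibroblast markers (LUM had no count), and neither tested endothelial marker passed. The part of these markers in the results on the members was not tested, and in bulk RNA fewer cells of a type and less RNA per cell cannot be told apart.

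Most members were scarce. Their mean level over the 6 libraries was under 1 CPM for 62, between 1 and 10 CPM for 73 and at least 10 CPM for 20. Of the 155, 112 reached 0.5 CPM in both lines, 23 in HCT116 only and 20 in DNMT3B KO only. Just inside the threshold, the higher line's mean in CPM of all counts was 0.516 for LINC01852, 0.518 for LINC00707 and 0.520 for LINC02606. Just outside, it was 0.491 for LINC02438, 0.489 for LINC01311 and 0.489 for LINC00115. The members lay on 23 chromosomes, with a median distance of 16.3 kb to the nearest protein-coding gene, and 48 lay more than 50 kb from one. Another 34 lay less than 1 kb from a protein-coding gene, of which 26 overlapped it on either strand. In GENCODE release 44, 144 were annotated as lncRNA, 9 as pseudogenes and 2 as protein-coding genes (LINC00634 and LINC00672), so the symbol no longer matched the annotation for those 11. Reads could not be placed with certainty for every member, since 51 overlapped another gene annotated on the same strand and 15 had fewer than 50% of their 50-base stretches unique among annotated transcripts.

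Of the 154 tested members, 29 were called higher in DNMT3B KO and 22 lower, and 103 were not called. These are 18.8% and 14.3% of the tested members. Among all 16959 tested genes 12.9% were called higher and 15.1% lower. Because a member high in one line only had to differ to some extent to be included, these counts are descriptions. The 112 members at 0.5 CPM in both lines gave 16 higher and 9 lower calls, 14.3% and 8.04%, against 11.8% and 15.1% of all genes at that level in both lines. Among lncRNA genes other than members at 0.5 CPM in either line, 17.3% were called higher and 9.33% lower.

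The counts of calls depended on the scaling. With library sums alone in place of TMM scaling, fold changes of all tested genes shifted by a median of 0.13 on the log2 scale, 3349 genes were called higher and 1884 lower in place of 2196 and 2565, and the members gave 35 higher and 21 lower calls. Values below are relative to the TMM scaling. The median log2 fold change of the tested members was 0.08, that of all tested genes -0.00063.

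The spread in HCT116 was larger than in DNMT3B KO. Over the 112 members at 0.5 CPM in both lines, the median coefficient of variation was 25.6% in HCT116 and 11.5% in DNMT3B KO. HCT116 replicate 2 held the highest of the 3 values for 103 of the 155 members and replicate 3 the lowest for 99. Replicate 3 also had the smallest total and the lowest TMM factor, 0.910, and the part of depth was not tested. The variation and these ranks were not measured over all genes. Without HCT116 replicate 2, 44 members were called higher in place of 29, and 31 of these at 0.5 CPM in both lines in place of 16. Without HCT116 replicate 3, 33 members were called lower in place of 22, of which 17 in place of 9 at 0.5 CPM in both lines. For that class the count of higher calls was 10 without HCT116 replicate 1 and 10 without DNMT3B KO replicate 3. Over all tested genes, 2868 of 17367 were called higher without HCT116 replicate 2, in place of 2196 of 16959. Without HCT116 replicate 3, 3143 of 17532 were called lower, in place of 2565 of 16959. Of the 29 higher and 22 lower calls, 20 and 16 were kept whichever library was left out.

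**Figure D1:**
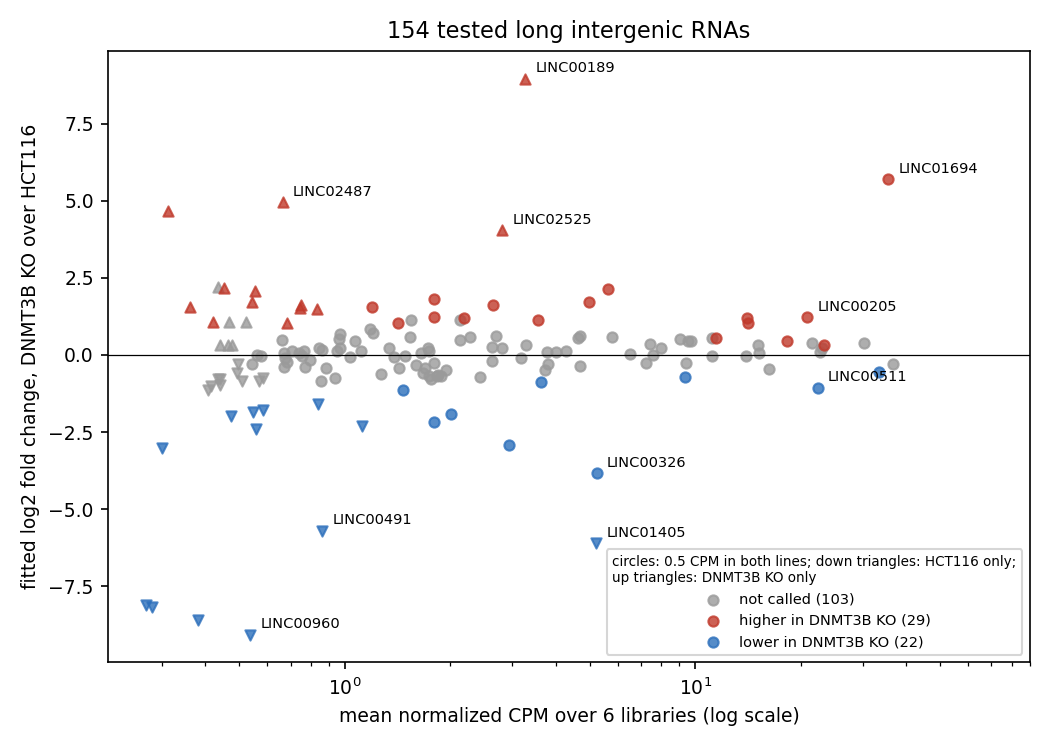
Mean normalized CPM over 6 libraries (log axis) against the fitted log2 fold change for 154 members, with colour for the call and symbol shape for the line in which the member reached 0.5 CPM. The 103 members that were not called cluster near 0, while LINC01694 combines one of the highest levels with a log2 fold change of 5.70; fitted values of members with few or no counts in a line depend on the prior count.

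Among members at 0.5 CPM in both lines, the largest increase was in LINC01694 (ENSG00000233922, chromosome 21, positions 45590771 to 45603088, plus strand). It was at 0.763, 2.50 and 0.696 CPM in the HCT116 libraries and at 73.5, 65.9 and 69.6 CPM in the DNMT3B KO libraries. Every knockout library was far above every parental one (log2 fold change 5.70, SE 0.43, edgeR adjusted p = 6.61e-05, a fold of 52). Non-overlap of the lines was a condition for naming it among the largest increases. Without HCT116 replicate 2, the highest of the parental values, the log2 fold change was 6.55. At 17.4 kb its nearest tested coding neighbour was SLC19A1, the reduced folate carrier, and SLC19A1 went from 48.6 ± 16.3 to 43.3 ± 4.36 CPM (log2 fold change -0.16, SE 0.22, edgeR adjusted p = 0.630). In DNMT3B KO, LINC01694 had the highest normalized CPM of all members, a level not divided by length. It also moved the summed level of the 155 members, which was 612, 713 and 569 in HCT116 and 754, 748 and 747 CPM in DNMT3B KO. Without LINC01694 the sums were 611, 711 and 568 CPM against 681, 682 and 677 CPM, and the lines overlapped.

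LINC01694 was one of 5 members on chromosome 21, and 4 of these 5 were called higher. This grouping was made after the values were seen. On chromosome 12, 5 of 9 tested members were called lower and 1 higher. On chromosomes 4 and 6, 4 of 8 and 4 of 9 were called higher, with 1 and 3 called lower. LINC01547 (ENSG00000183250, chromosome 21, positions 44932814 to 44939941, minus strand) was at 1.82, 2.68 and 1.76 in HCT116 and 7.41, 10.9 and 9.17 CPM in DNMT3B KO (log2 fold change 2.13, SE 0.24, edgeR adjusted p = 0.000468). LINC00205 (ENSG00000223768, chromosome 21, positions 45288035 to 45297806, plus strand) was at 11.9, 15.8 and 9.86 CPM and 28.6, 32.8 and 26.1 CPM (log2 fold change 1.22, SE 0.18, edgeR adjusted p = 0.00197). The lines did not overlap for either RNA, which for LINC01547 was a condition for naming it. Both start head to head with a coding gene, LINC01547 at 84 bases from the start of SLX9, a ribosome biogenesis factor, and LINC00205 at 137 bases from that of POFUT2, a protein O-fucosyltransferase. Neither partner passed the test, with SLX9 at a log2 fold change of 0.10 (SE 0.14, edgeR adjusted p = 0.661) and POFUT2 at 0.30 (SE 0.10, edgeR adjusted p = 0.0607). The fifth, LINC01670, was not called, and only 4.0% of its 50-base stretches were unique. Of all 170 tested genes on chromosome 21, 20.6% were called higher and their median log2 fold change was 0.02.

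The other member on chromosome 21, LINC00189 (ENSG00000215533, chromosome 21, positions 29193480 to 29288205, plus strand), was included for its level in DNMT3B KO alone, so that inclusion fixed its direction. It had 2 counts in HCT116, both in replicate 1, and 1288 in the DNMT3B KO libraries, a ratio of 589 (exact 95% interval 163 to 4869, counting error only) after scaling. The levels were 0.0372, 0 and 0 in HCT116 and 6.59, 6.05 and 6.89 CPM in DNMT3B KO. LINC00189 lies on the same strand as the transcript of BACH1, a transcriptional repressor regulated by haem, and reads shared by both genes may be divided between them by the counting. How the counting divided them was not tested, and 76.5% of the 50-base stretches of LINC00189 were unique. BACH1 went from 41.5 ± 4.92 to 119 ± 12.8 CPM (log2 fold change 1.52, SE 0.12, edgeR adjusted p = 8.64e-05).

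Other large differences lay outside chromosome 21, in members that reached 0.5 CPM in DNMT3B KO only. LINC02525 (ENSG00000230269, chromosome 6, positions 3182626 to 3195784, minus strand) was at 0.262, 0.653 and 0.0257 in HCT116 and at 5.11, 4.67 and 6.17 CPM in DNMT3B KO, a fitted fold of 16.5. The HCT116 values were widely spread, with replicate 3 far under the other libraries, and without replicate 2 the log2 fold change was 5.13 in place of 4.05. LINC02487, on chromosome 6 as well, had 7 counts in HCT116 and 256 in DNMT3B KO, a ratio of 33.4 (exact 95% interval 16 to 84, counting error only). Its fitted log2 fold change was 4.95, with 4.34 without HCT116 replicate 2 and 6.23 without HCT116 replicate 3. LINC00324 on chromosome 17 was at 0.330, 0.438 and 0.335 CPM and 1.10, 1.17 and 1.13 CPM. Since their low level in HCT116 was what placed these RNAs in this class, no p is attached to them. The class held 13 called members of 19 tested, beside 12.9% of all tested genes called higher, and entry by a low HCT116 level fixed their direction. They had a fold between 2.05 and the values above.

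A group of moderately expressed members rose severalfold. LINC02008 on chromosome 3 went from 2.02, 2.42 and 2.55 CPM to 7.68, 6.67 and 8.44 CPM (log2 fold change 1.71, SE 0.18, edgeR adjusted p = 0.000368). LINC01842 on chromosome 19 went from 0.855, 0.969 and 0.530 CPM to 2.51, 3.09 and 2.81 CPM (log2 fold change 1.82, SE 0.28, edgeR adjusted p = 0.00242). Its coding neighbour ADGRE5 (CD97), an adhesion receptor, changed in the other direction, as ADGRE5 went from 117 ± 8.28 to 53.2 ± 2.38 CPM (log2 fold change -1.13, SE 0.09, edgeR adjusted p = 7.64e-05). For LINC01098 on chromosome 4 the mean rose from 1.30 ± 0.331 to 3.98 ± 0.0935 CPM (log2 fold change 1.61, SE 0.25, edgeR adjusted p = 0.00216). LINC02449 on chromosome 12 rose from 0.605 ± 0.121 to 1.78 ± 0.188 CPM (log2 fold change 1.57, SE 0.27, edgeR adjusted p = 0.00396), beside FAM90A1 at 7.80 kb, where FAM90A1 went from 0.908 ± 0.363 to 2.56 ± 0.195 CPM (log2 fold change 1.48, SE 0.32, edgeR adjusted p = 0.0111). No library of one line reached the range of the other for any of these 4 RNAs, which was a condition for naming them.

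The remaining members called higher at 0.5 CPM in both lines were LINC02331, LINC00909, LINC00431, LINC00680, LINC02482, LINC00652, LINC00205, LINC00847, LINC00467 and LINC01123. LINC02331 on chromosome 14 went from 8.53, 8.21 and 9.0 CPM to 19.4, 18.6 and 20.5 CPM (log2 fold change 1.19, SE 0.11, edgeR adjusted p = 0.000204), and LINC00909 from 9.20 ± 1.20 to 19 ± 1.44 CPM (log2 fold change 1.05, SE 0.14, edgeR adjusted p = 0.00104). LINC00431 and LINC00680 had no unique 50-base stretch, so that their counts may come from near-identical genes. The calls of LINC00680, LINC00652 and LINC02482 were lost when 1 library was left out. For LINC00680 the edgeR adjusted p was 0.0561 to 0.145 without HCT116 replicate 1 or any DNMT3B KO library. For LINC00652 it was 0.0546 to 0.0699 without HCT116 replicate 1 or DNMT3B KO replicates 2 or 3, and for LINC02482 it was 0.0522 and 0.0597 without DNMT3B KO replicate 3 and HCT116 replicate 1.

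**Figure D2:**
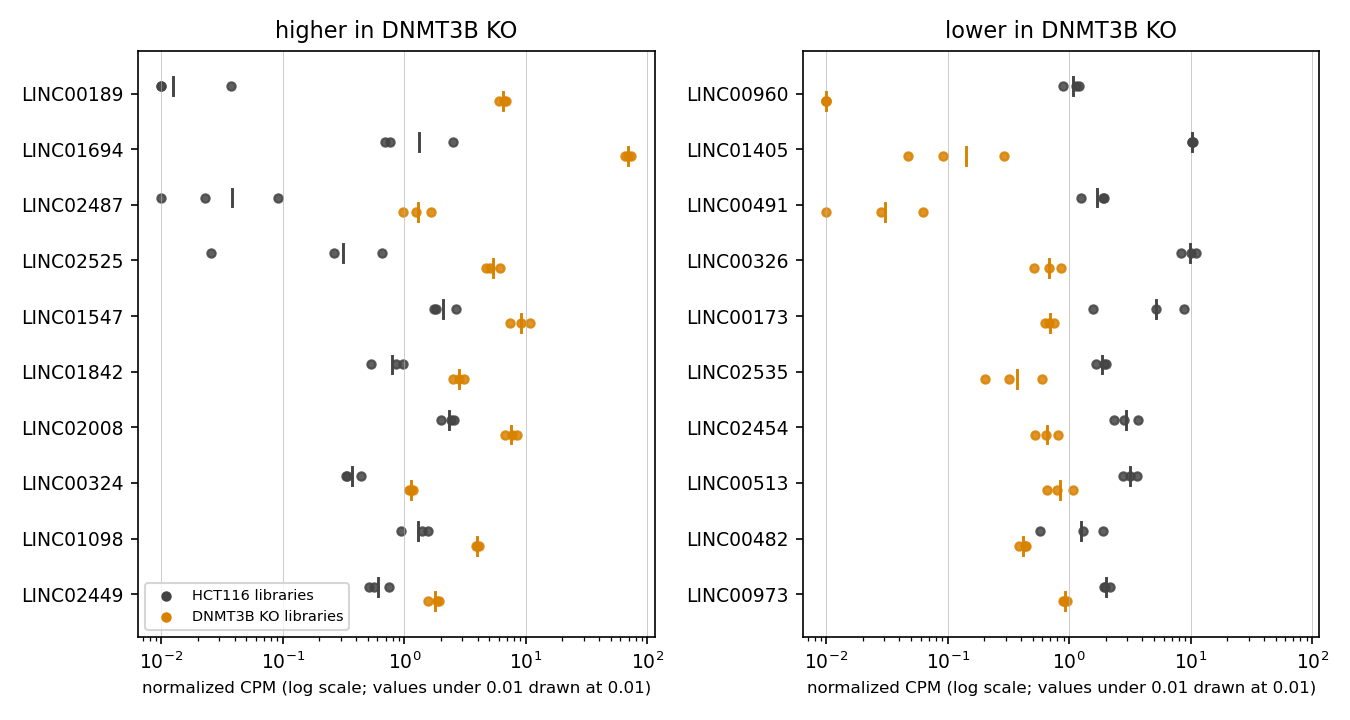
Normalized CPM (log axis) in each of the 3 HCT116 and 3 DNMT3B KO libraries for the named members, 10 with large increases and 10 with large decreases among those that reached 1 CPM, with ticks for the means and values under 0.01 drawn at 0.01. The lines do not overlap for any of the 20, since this was part of how they were chosen, and HCT116 values spread widely for LINC01694, LINC02525 and LINC00173.

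Among decreases, 4 members had no count in DNMT3B KO. LINC00960 (ENSG00000242516, chromosome 3, positions 75672251 to 75742048, plus strand) was at 1.13, 1.20 and 0.882 CPM in HCT116, at least 23.3-fold above the level that 3 counts per library would give in DNMT3B KO. LINC02683, LINC02616 and LINC00707 were at 0.761 ± 0.181, 0.564 ± 0.252 and 0.541 ± 0.0729 CPM in HCT116, at least 16.6-fold, 12.3-fold and 11.8-fold above that floor. LINC00491 on chromosome 5 had 313 counts in HCT116 and 6 in DNMT3B KO, a ratio of 57 (exact 95% interval 25.9 to 157, counting error only). Its fitted log2 fold change was -5.70, with -5.08 without DNMT3B KO replicate 1 and -6.68 without DNMT3B KO replicate 2. For these RNAs the level in DNMT3B KO lay at or near the limit of detection at this depth.

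Other losses stood out by level. LINC01405 (ENSG00000185847, chromosome 12, positions 110934590 to 110959093, plus strand) was at 10.2, 10.2 and 10.5 in HCT116 and at 0.0916, 0.0470 and 0.288 CPM in DNMT3B KO, a fitted fold of 69.1 in favour of HCT116. Without DNMT3B KO replicate 3, the highest of the 3 low values, the log2 fold change was -7.05 in place of -6.11. LINC00326 (ENSG00000231023, chromosome 6, positions 132954257 to 133107410, plus strand) remained above 0.5 CPM in both lines and fell from 10.1, 11 and 8.26 CPM to 0.680, 0.517 and 0.861 CPM (log2 fold change -3.83, SE 0.24, edgeR adjusted p = 2.49e-05). Every HCT116 library lay above every DNMT3B KO library for both RNAs, which was a condition for naming them.

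Smaller decreases were called for further members at 0.5 CPM in both lines. LINC00173 on chromosome 12 went from 5.14, 8.84 and 1.58 CPM in HCT116, a wide spread, to 0.755, 0.684 and 0.629 CPM (log2 fold change -2.92, SE 0.56, edgeR adjusted p = 0.00644). The lowest HCT116 library still exceeded the highest DNMT3B KO library, which was a condition for naming LINC00173. Without HCT116 replicate 2 the log2 fold change was -2.31. LINC02454 fell from 2.94 ± 0.691 to 0.656 ± 0.138 CPM (log2 fold change -2.17, SE 0.29, edgeR adjusted p = 0.00114) and LINC00513 from 3.18 ± 0.395 to 0.842 ± 0.211 CPM (log2 fold change -1.92, SE 0.27, edgeR adjusted p = 0.00131). LINC00973 on chromosome 3 fell from 2.02 ± 0.112 to 0.919 ± 0.0387 CPM (log2 fold change -1.13, SE 0.23, edgeR adjusted p = 0.00753). LINC02535 and LINC00482 reached 0.5 CPM in HCT116 only, at 1.87 ± 0.168 and 1.26 ± 0.665 CPM against 0.372 ± 0.203 and 0.418 ± 0.0304 CPM in DNMT3B KO. The call of LINC00482 (log2 fold change -1.60) was lost without HCT116 replicate 1 or any DNMT3B KO library, with log2 fold changes from -1.64 to -1.54. Of the 23 members that reached 0.5 CPM in HCT116 only, 13 were called lower and 10 were not called, beside 15.1% of all tested genes called lower. A low DNMT3B KO level placed them in this class and fixed the direction, so no p is attached to them.

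The 10 highest members by normalized CPM, before any division by length, held 36.8% of the summed normalized CPM of all members in HCT116 and 40.9% in DNMT3B KO. After division by the exonic length in GENCODE, the mean over 6 libraries was 7.06 CPM per kb for LINC01123, 4.86 for LINC01694, 2.76 for LINC01234, 2.73 for LINC00205, 2.36 for LINC02210 and 2.15 for LINC00963. It was 1.39 for LINC01184, 1.26 for LINC01128, 1.23 for LINC02693 and 0.808 for LINC00511, whose annotated exons are the longest of the 10. LINC01123 has 21.9% unique stretches, so that its place in this order is uncertain. The exonic length also joins the exons of all annotated transcripts and can exceed that of the RNA present. The order of all 10 is therefore uncertain. Of these RNAs, LINC02210, LINC00963, LINC01184, LINC01128 and LINC02693 were not called in the comparison, and their means are those in the plot of the highest members. LINC02210 overlaps a read-through gene on the same strand and is annotated as a pseudogene. Without HCT116 replicate 3 it was called (edgeR adjusted p = 0.0334), as was LINC02693 (edgeR adjusted p = 0.0278), and LINC00963 was called without HCT116 replicate 2 (edgeR adjusted p = 0.0103).

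A list of 43 LINC RNAs studied in carcinoma was compared with the files, in which 36 were listed and 18 were members. Of these 18, 3 were called higher, 5 lower and 10 were not called. The shares were 16.7% and 27.8%, beside 12.9% and 15.1% of all tested genes. LINC00491 and LINC00707, among the lower calls, reached 0.5 CPM in HCT116 only, so that inclusion fixed their direction. Both of the most abundant RNAs that changed fell. LINC00511 (ENSG00000227036, chromosome 17, positions 72290091 to 72640472, minus strand), reported in several carcinomas as a raised RNA, went from 29, 34.5 and 27.1 CPM to 14.9, 14.2 and 14.3 CPM (log2 fold change -1.06, SE 0.12, edgeR adjusted p = 0.000449). LINC01234 (ENSG00000249550, chromosome 12, positions 113583886 to 113773726, minus strand) went from 35.4, 40.2 and 43.6 CPM to 26.8, 25.9 and 29 CPM (log2 fold change -0.55, SE 0.11, edgeR adjusted p = 0.00665). All DNMT3B KO values lay under all HCT116 values in both cases. LINC00460 fell from 4.71 ± 1.34 to 2.56 ± 0.137 CPM (log2 fold change -0.88, SE 0.25, edgeR adjusted p = 0.0316), and LINC00491 and LINC00707 are described above.

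In the list, LINC00205 rose as given above, and the other 2 increases were small. LINC00467 went from 15.5 ± 2.59 to 21.1 ± 1.32 CPM (log2 fold change 0.45, SE 0.14, edgeR adjusted p = 0.0475) and LINC00847 from 9.24 ± 1.65 to 13.7 ± 1.45 CPM (log2 fold change 0.57, SE 0.17, edgeR adjusted p = 0.0393). LINC01123, outside the list, rose from 20.6 ± 0.842 to 26 ± 1.73 CPM (log2 fold change 0.34, SE 0.10, edgeR adjusted p = 0.0369). The calls of these RNAs and of LINC00460 did not survive the loss of a library. Left without HCT116 replicate 1 or any DNMT3B KO library, LINC00847 had edgeR adjusted p from 0.0692 to 0.134, LINC01123 from 0.0564 to 0.148 and LINC00460 from 0.0891 to 0.120. For LINC00467 the range was 0.0673 to 0.153 without HCT116 replicates 1 or 3 or any DNMT3B KO library. LINC00662, LINC00839, LINC01106, LINC00630, LINC01315, LINC01503, LINC00659, LINC00920, LINC00963 and LINC02163 were not called. Among them, LINC00662 was at 14.8 ± 1.15 and 15.6 ± 0.635 CPM and LINC00839 at 14.2 ± 0.834 and 13.8 ± 2.43 CPM. LINC01503, LINC01106 and LINC00963 passed without HCT116 replicate 2 (edgeR adjusted p = 0.0140, 0.0302 and 0.0103), and LINC00659 and LINC00920 without HCT116 replicate 3 (0.0376 and 0.0267).

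**Figure D3:**
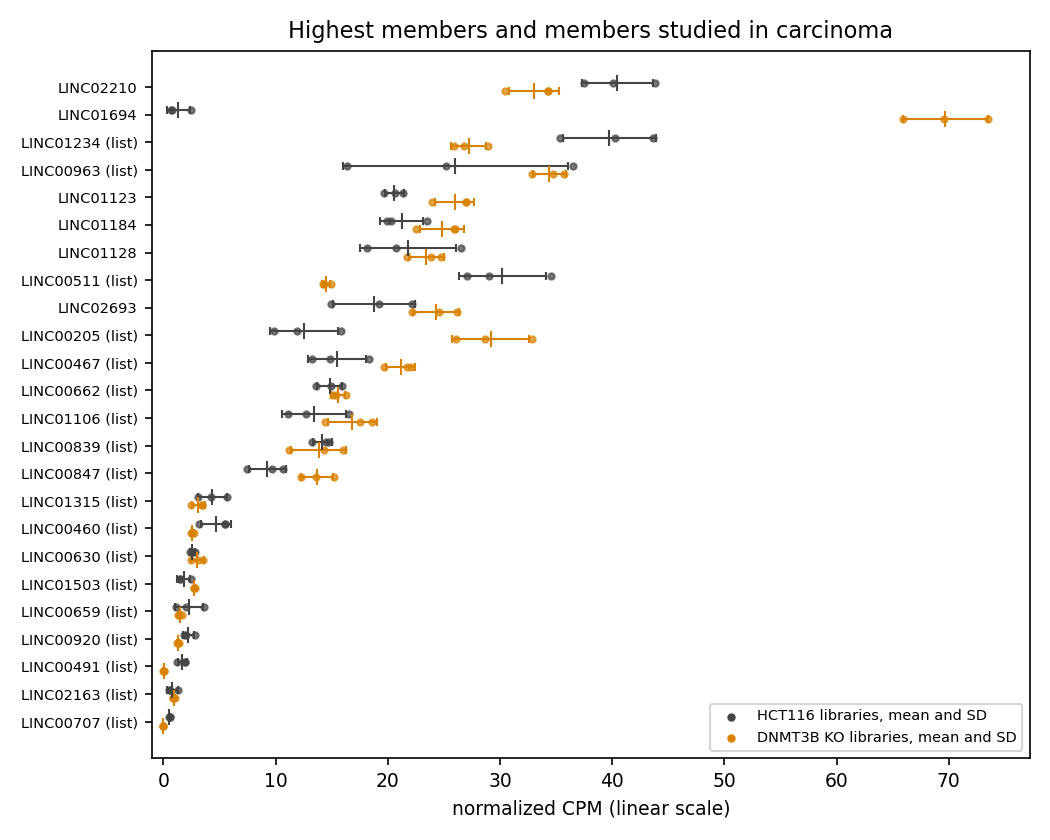
Normalized CPM (linear axis) of the 10 highest members and of the 18 members from the list of RNAs studied in carcinoma (marked "list"), with points for libraries and bars for mean ± SD over 3 libraries. LINC01694 stands at 1.32 in HCT116 and 69.7 CPM in DNMT3B KO, LINC00511 and LINC01234 are lower in DNMT3B KO, and LINC00662 and LINC00839 lie together.

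The nearest tested protein-coding gene within 100 kb was examined for 123 members. Of all tested protein-coding genes, 13.1% were called higher and 16.9% lower. Of 24 members called higher, 6 had a neighbour called higher and 3 a neighbour called lower. Of 14 called lower, 8 had a neighbour called lower and 2 a neighbour called higher. Of the 85 members that were not called, 5 had a neighbour called higher and 17 a neighbour called lower. Across the 123 pairs, all from the same 6 libraries, the log2 fold changes of member and neighbour had a Pearson r of 0.43 and a Spearman rho of 0.32, given as a description. The pairs include members at 0.5 CPM in HCT116 only or in DNMT3B KO only, whose direction was fixed by inclusion. They also include LINC02683, which had no count in DNMT3B KO and whose fitted value depends on the prior count. Some pairs overlap on the same strand and can share reads. Without these pairs, 23 members called higher had 5 neighbours called higher and 3 called lower. The 14 called lower kept 8 neighbours called lower and 2 called higher. The 78 not called had 4 called higher and 15 called lower. The correlation was not recomputed without these pairs.

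Some neighbours of the named members moved with them and some against. LINC01405 lies 13.1 kb from MYL2, which encodes a cardiac myosin light chain, and MYL2 went from 0.802 ± 0.363 to 0.0413 ± 0.0377 CPM (log2 fold change -4.08, SE 0.71, edgeR adjusted p = 0.00397). LINC02535 lies 59.4 kb from NT5E, the ectonucleotidase CD73, and NT5E went from 172 ± 22.6 to 35.7 ± 11.1 CPM (log2 fold change -2.27, SE 0.24, edgeR adjusted p = 0.000304). For LINC00973, DCBLD2, a membrane receptor, is at 79.4 kb, and DCBLD2 went from 1280.3 ± 282 to 547 ± 31.1 CPM (log2 fold change -1.23, SE 0.16, edgeR adjusted p = 0.00104). By contrast, beside LINC00491 at 82.2 kb is PAM, the enzyme that amidates peptide hormones, and PAM went from 198 ± 18 to 427 ± 41.5 CPM (log2 fold change 1.11, SE 0.11, edgeR adjusted p = 0.000257). Beside LINC02454 at 97.7 kb is MSRB3, a methionine sulfoxide reductase, and MSRB3 went from 12.9 ± 1.32 to 29.7 ± 3.26 CPM (log2 fold change 1.20, SE 0.13, edgeR adjusted p = 0.000340). TUBB2A, a beta-tubulin gene 25.1 kb from LINC02525, rose at a log2 fold change of 0.51 (SE 0.16, edgeR adjusted p = 0.0472). The neighbours of LINC00173, LINC00482, LINC00324 and LINC01547 did not pass the test.

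A further 3 pairs were chosen after their values were seen. LINC02331 lies 98.9 kb from BMP4, a bone morphogenetic ligand, and BMP4 went from 91.9 ± 5.0 to 487 ± 29.6 CPM (log2 fold change 2.41, SE 0.10, edgeR adjusted p = 2.37e-06). LINC01814, at 0.5 CPM in HCT116 only, lies 85.9 kb from ID2, an inhibitor of helix-loop-helix factors, and ID2 went from 58.1 ± 17.6 to 7.87 ± 2.14 CPM (log2 fold change -2.89, SE 0.26, edgeR adjusted p = 0.000158). LINC02683 lies 37.9 kb from SPON1, a secreted matrix protein, and SPON1 went from 1.24 ± 0.586 to 0.0552 ± 0.0124 CPM (log2 fold change -4.44, SE 0.49, edgeR adjusted p = 0.000439). The call of LINC01814 (log2 fold change -1.85) was lost without DNMT3B KO replicate 1, with a log2 fold change of -1.72.

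**Figure D4:**
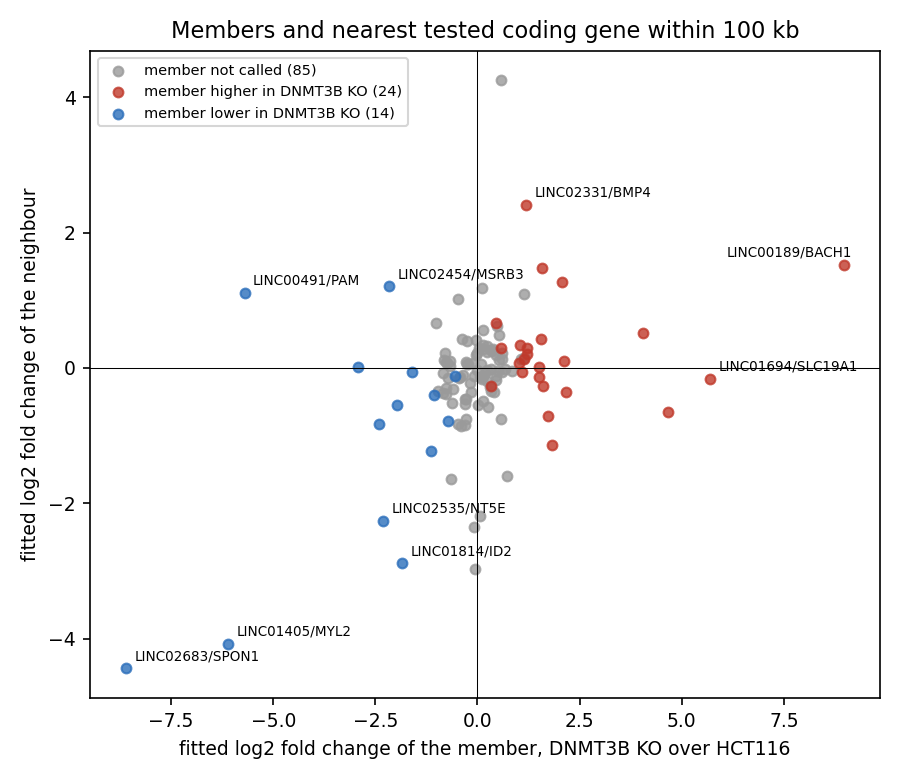
Fitted log2 fold change of each member (horizontal) and of the nearest tested protein-coding gene within 100 kb (vertical) for 123 pairs, coloured by the member's call, with selected pairs named. Of the 14 lower members, 8 have a neighbour that was called lower, and LINC01694 has a neighbour near 0.

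Members that share a start region with a coding gene were few. Of 11 members starting within 1 kb of a divergent coding gene, 3 were called higher (LINC01547, LINC00205 and LINC01088) and the other 8 were not called, beside 12.9% and 15.1% of all tested genes called higher and lower. LINC01088, which reached 0.5 CPM in DNMT3B KO only, was at 0.165 ± 0.0566 in HCT116 and 0.738 ± 0.185 CPM in DNMT3B KO, while its partner PAQR3, a Golgi membrane protein, had a log2 fold change of -0.35 (SE 0.10, edgeR adjusted p = 0.0280).

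Promoter windows were available by symbol for 100 members. They held a median of 13 CG dinucleotides, close to the 14 of all 35116 windows of the table and above the 4 of all 1739 windows with a LINC symbol. The median was 14 for the 17 members called higher, 7.5 for the 14 called lower and 13 for the 68 not called. Of the 100, 70 had a start within 1 kb of the GENCODE start. Among these the median was 25 for the 13 members called higher, 15 for the 9 called lower and 15 for the 47 not called, with ranges from 3 to 42, 1 to 35 and 1 to 44. These medians are a description, and the ranges overlapped. The letters TATAAA, searched on both strands, were in 14.0% of the members' windows and in 11.5% of all windows.

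**Figure D5:**
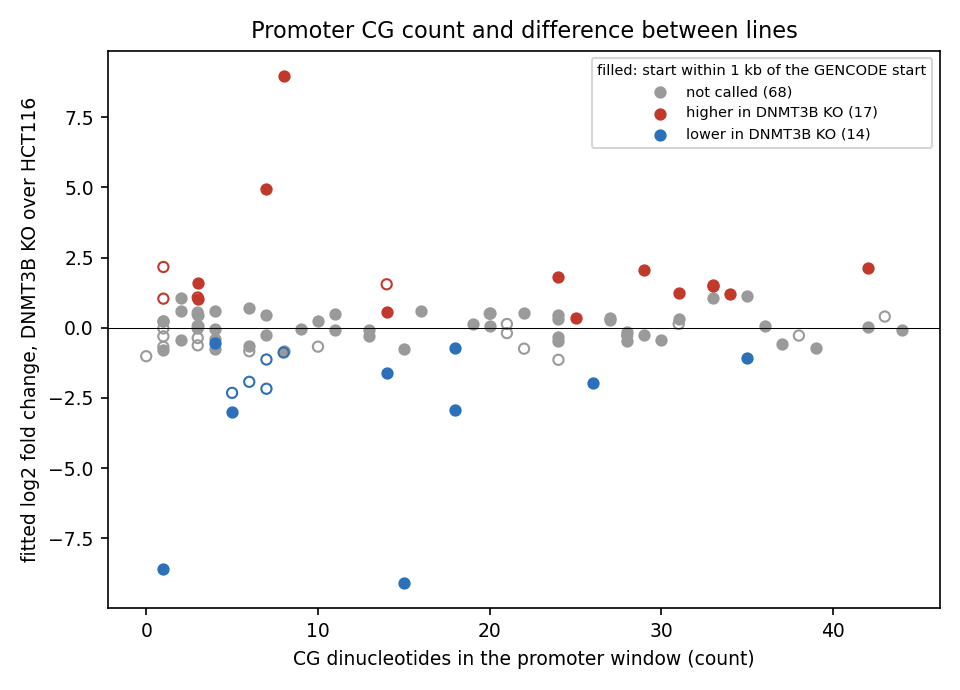
Number of CG dinucleotides in the 300-base promoter window (horizontal) against the fitted log2 fold change (vertical) for members with a RefSeq window, coloured by call and filled where the RefSeq start lay within 1 kb of the GENCODE start. Called members are spread widely over the counts, as LINC02487 with 7 and LINC01547 with 42.

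Non-overlap of the libraries gave a count without the fitted test, although from the same TMM-scaled values and filtered genes. All 3 DNMT3B KO libraries lay above all 3 HCT116 libraries for 43 of the 154 tested members and below them for 34, and 77 overlapped. Among all tested genes the shares were 23.3% and 22.6%. Members at 0.5 CPM in DNMT3B KO only gave 15 above and 0 below. Those in HCT116 only gave 0 and 15, and inclusion fixed the direction in both classes. The 112 members at 0.5 CPM in both lines gave 28 and 19, beside 3043 and 3210 of 13810 tested genes at that level. These counts are descriptions. LINC01176, the 1 member that the filter on low counts removed, was at 0.121, 0.0253 and 0.0478 in HCT116 and 1.46, 0.173 and 0.0864 CPM in DNMT3B KO, so that its inclusion rested on a single library.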

How the data were processed

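RNA from HCT116 and DNMT3B KO cells was sequenced from poly-A-selected stranded libraries, 3 per line. Per the study's methods, STAR placed the reads on hg38 and Salmon quantified them in GENCODE 37 transcripts, and the authors deposited estimated counts per gene after scaling for gene length. RNAs without a poly-A tail are under-represented by such libraries, and near-identical or same-strand genes share reads.

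Estimated counts were rounded. Genes passed filterByExpr, libraries were scaled by TMM, and genotype was tested in edgeR 4.0.16 (quasi-likelihood, R 4.3.3) over 16959 genes with Benjamini-Hochberg adjustment, in place of the authors' DESeq2. The fit was also run on simulated counts that gave all genes and both lines the same spread, unlike these libraries. That run therefore does not measure error rates in these data. Positions, types and lengths came from GENCODE 44 on hg38, and stretches of 50 bases were called unique within its transcripts. Folds against no count are bounds at 3 counts per library, and ratios of small counts have exact 95% intervals, which cover counting error only.

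Named members were the 10 largest increases and decreases among called members at 1 CPM without overlap of lines, the 10 highest levels, members studied in carcinoma, those beside the threshold, and coding neighbours within 100 kb. The members and all lists were chosen with earlier results of these data known. Alternatives were RLE scaling, DESeq2 1.42.0, no filter, other thresholds, a replicate block and libraries left out. Scaling by library sums and members free of same-strand overlap were added after seeing the data.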

Additional observations from a re-analysis of the deposited data

How the results depend on the processing

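The counts of called members (29 higher, 22 lower) stayed within 1.5 times under RLE scaling, DESeq2, no filter, library sums and removal of same-strand overlaps, with 23 to 35 higher and 17 to 25 lower. Without same-strand overlaps 104 members remained, and their 23 higher and 17 lower calls were 22.1% and 16.3%, in place of 18.8% and 14.3%. All tested genes gave 12.9% and 15.1%. With 1 CPM in either line 106 members remained, giving 22 higher and 14 lower. With 0.5 CPM in both lines 112 remained, giving 16 higher and 9 lower (14.3% and 8.04%). All genes at that level gave 11.8% and 15.1%. TMM-scaled CPM gave 154 members. Leaving out 1 library gave 20 to 44 higher and 17 to 33 lower, while the calls over all tested genes ran from 3049 to 5924 in place of 4761. The cause was not tested. The lines shared replicate numbers, and deviations of same-numbered libraries were weakly correlated (r = 0.064, -0.0096 and 0.12). Differently numbered libraries gave r from -0.12 to 0.084. With 3 libraries per line these values cannot decide whether the numbers are a pairing. A replicate block gave 24 higher and 22 lower members, and 44 of the 51 called members were called with it. Members with a sign that turned were not called in any of these fits. LINC00839 (-0.032) had a log2 fold change of 0.10 with library sums and from -0.15 to 0.099 without 1 library, LINC01128 (0.11) from -0.019 to 0.27, LINC01852 (0.33) from -0.20 to 0.68 and LINC02163 (0.21) from -0.042 to 0.84. Of 737 recomputed log2 fold changes for 67 members, 661 kept direction and call, 60 lost the call and 11 gained it. Counts were lowest for members near the threshold, such as LINC00707 with 99 over the 3 HCT116 libraries, and the part of depth was not tested.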

Other observations

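Long non-coding RNAs with other symbols were read from a separate list, in which 33 genes were tested, 5 were called higher in DNMT3B KO and 8 lower (15.2% and 24.2%, beside 12.9% and 15.1% of all tested genes). The largest decrease was in UCA1, an RNA first described in urothelial carcinoma, at 77.1, 149.8 and 78.3 CPM in HCT116 and 4.53, 4.90 and 4.53 CPM in DNMT3B KO (log2 fold change -4.45, SE 0.29, edgeR adjusted p = 2.69e-05). BLACAT1 fell from 5.91 ± 2.15 to 1.02 ± 0.292 CPM (log2 fold change -2.53, SE 0.34, edgeR adjusted p = 0.00106), and TINCR, an RNA of epidermal differentiation, from 5.68 ± 1.37 to 1.08 ± 0.0912 CPM (log2 fold change -2.39, SE 0.25, edgeR adjusted p = 0.000282). CYTOR fell from 16.7 ± 3.75 to 5.88 ± 0.295 CPM (log2 fold change -1.51, SE 0.18, edgeR adjusted p = 0.000663), and NORAD, an abundant RNA that binds Pumilio proteins, from 228 ± 40.2 to 143 ± 5.18 CPM (log2 fold change -0.67, SE 0.13, edgeR adjusted p = 0.00642). In the other direction, the largest increase was in HULC, from 0.578 ± 0.150 to 1.68 ± 0.262 CPM (log2 fold change 1.54, SE 0.30, edgeR adjusted p = 0.00683). CASC2 (log2 fold change 0.92, edgeR adjusted p = 0.00657) and CRNDE (0.64, edgeR adjusted p = 0.0369) were also called higher. TUG1 rose from 78.3 ± 6.36 to 129.8 ± 5.89 CPM (log2 fold change 0.73, SE 0.09, edgeR adjusted p = 0.000830) and KCNQ1OT1, an imprinted antisense RNA, from 1.33 ± 0.108 to 2.39 ± 0.167 CPM (log2 fold change 0.84, SE 0.22, edgeR adjusted p = 0.0220). MALAT1 and NEAT1, both retained in the nucleus, were not called, at 51.3 ± 28.7 and 54.8 ± 22.6 CPM and at 58 ± 22.5 and 76.3 ± 18.5 CPM.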
